A study of Mus musculus with 8 samples.

Results

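The genes described here make up the antioxidant and glutathione defence of the mouse cortex. A list of 44 gene symbols was matched to the gene symbols that accompany the deposited values, and 39 of the 44 had a row, all of which passed the minimum level for testing among 10588 genes. The 5 symbols with no row were Gpx3, Gpx4, Gstp1, Hmox1 and Nqo1, and they were not analysed here. Poly(A)+ RNA had been sequenced from the cortex of 4 bigenic and 4 nontransgenic mice of the C57BL/6 strain. Bigenic mice carried Camk2a-tTa together with deltaNLS-hTDP-43, a human TDP-43 in which the nuclear localization signal is mutated. Doxycycline, which holds the transgene silent, was withdrawn from both groups at 28 days of age, and tissue was taken 10 days later. Each group held 3 males. The transactivator tTA was driven by the Camk2a promoter, so transgene expression was limited to neurons that use this promoter, whereas RNA came from all cells of the tissue. The nontransgenic controls carried neither tTA nor the transgene, so effects of the 2 transgenes cannot be told apart.

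Superoxide dismutases turn superoxide into hydrogen peroxide, which catalase, glutathione peroxidases and peroxiredoxins then break down. The thioredoxin and glutaredoxin systems return oxidised thiols to their reduced state with electrons from NADPH, and glutathione, built by glutamate-cysteine ligase and glutathione synthetase, serves peroxidases and the transferases that conjugate it to electrophiles. Many of these genes are known targets of NRF2, the transcription factor encoded by Nfe2l2 that KEAP1 holds for degradation, and in brain much of this defence is carried by astrocytes.

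Each value is a normalized read count for one transcript in one mouse, and mice are given in the order of the table's columns, bigenic first. Approximately 10.6 to 31.9 M reads per bigenic mouse and 20.2 to 28.97 M per nontransgenic mouse lay on genes, so that 3 reads corresponded to at most 6.20 normalized counts, while the lowest group mean of any of the 39 genes was 140.2. The transcript uc999vvf.1, which has no symbol in the table, lay between 29375 and 41550 in the bigenic and between 5 and 80 in the nontransgenic mice, and endogenous Tardbp fell (log2 fold change -0.33, adjusted p = 0.00645), so the groups differed as labelled. The shallowest bigenic library, mouse 2, stood apart from the other 3 on the first principal component, at -46.0 against -12.8 to -15.1. Its deviations from the other bigenic mice correlated with GC content across 10297 genes (Pearson r = 0.37) and across the 39 antioxidant genes (r = 0.46), a description over genes that share one library. Results are therefore given with and without this mouse where it matters. The correlation with GC content was not confined to it. For deviations from the mean of all mice, r was 0.35 in mouse 2 and -0.086 to 0.082 in the other bigenic mice. In the nontransgenic mice r was -0.28 to -0.014. A fit with the trend on GC content and length removed is given at the end.

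**Figure D1:**
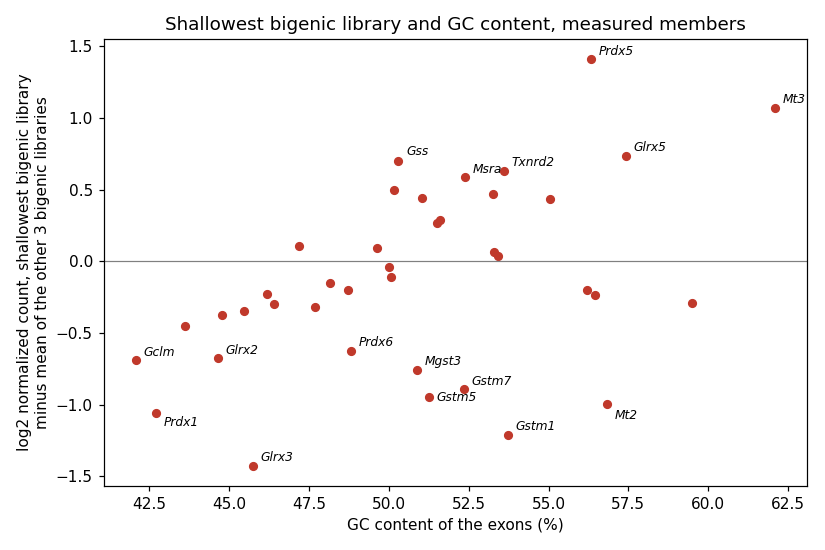
Each point is one of the 39 antioxidant genes, plotted by exon GC content (percent, horizontal axis) and by the log2 normalized count of the shallowest bigenic library minus the mean of the other 3 bigenic libraries (vertical axis). The difference tends to be negative at low and positive at high GC content (r = 0.46).

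Sequences that NRF2 can recognise lie in some of these promoters, and a few are shown so that the results on the NRF2-linked genes below can be read beside them. The core of the antioxidant response element, TGACNNNGC, was searched on both strands of RefSeq promoters (GRCm38.p6, 250 bases before to 50 after each start). It was found in 12.4% of all 32851 promoters and in 8 of the 49 promoters of the 34 matched antioxidant genes (16.3%), namely Gclm, Gstm5, Gstm7, Mt2, Nfe2l2, Prdx1, Srxn1 and Txnrd1. Gclc, Gsr, Gsta4, Msra and Prdx6 had no promoter entry and were not searched. In the windows below, each 30 bases long and written along the gene's strand, capitals mark the match, which reads as the reverse complement where the core is on the opposite strand.
Txnrd1, chr10:82859104-82859133, + strand, core on the opposite strand: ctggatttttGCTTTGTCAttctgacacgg
Srxn1, chr2:152105542-152105571, + strand, core on the opposite strand: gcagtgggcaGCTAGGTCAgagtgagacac
Prdx1, chr4:116685456-116685485, + strand, core on the opposite strand: cagggaaagcGCTGAGTCAtcccccgtagg
Gclm, chr3:122245413-122245442, + strand, core on the opposite strand: gctcccgggcGCACCGTCAactctcacgag
Nfe2l2, chr2:75704884-75704913, - strand, core on the gene's strand: tcagcccaccTGACTCCGCcatgccccgga
The share among these promoters was close to that among all promoters, and a match is only a description of the letters in this window.

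Across the 39 genes, the response was mixed in direction, and with all 8 mice the share that passed was that of the transcriptome. In the limma fit over all genes, 14 of 39 passed an adjusted p of 0.05, or 35.9%, against 35.9% of all genes tested. Of these, 9 rose (23.1%, against 20.5% of all genes) and 5 fell (12.8%, against 15.4%). Those that rose were Prdx2, Txn2, Txnrd1, Txnrd2, Gclc, Gss, Gsto1, Nfe2l1 and Keap1, and those that fell were Sod2, Prdx6, Txn1, Glrx2 and Gsta4. The bigenic and nontransgenic ranges were separate for 14 of the 39 genes (35.9%, against 39.0% of all genes), including 13 of the 14 that passed. In 8 of these the bigenic mice lay above (against 22.3% of all genes) and in 6 below (against 16.7%). The median log2 fold change was 0.06, beside 0.03 over all genes, and the median of its absolute value was 0.36, beside 0.25. By role, the median was -0.13 for the superoxide and peroxide enzymes, 0.07 for the thioredoxin and glutaredoxin genes, 0.14 for glutathione synthesis and recycling, -0.12 for the transferases, 0.28 for the regulators with Hmox2, and -0.35 for the metallothioneins. Without the shallowest bigenic mouse, 19 genes passed (48.7%, against 45.5% of all genes), 12 of them higher (against 25.3% of all genes) and 7 lower (against 20.2%). They were the 14 already named and Prdx1, Prdx5, Srxn1, Gstm1 and Mgst3. When each of the 8 mice was left out in turn, the number passing ranged from 5 to 19. It was 8 (20.5%, against 26.0% of all genes) without nontransgenic mouse 1, 5 (12.8%, against 25.2%) without nontransgenic mouse 2 and 6 (15.4%, against 25.1%) without nontransgenic mouse 3, so that in these fits the share was below that of all genes. Sod2, Txn2, Txnrd1, Gsta4 and Gsto1 passed in all 8 of these fits.

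**Figure D2:**
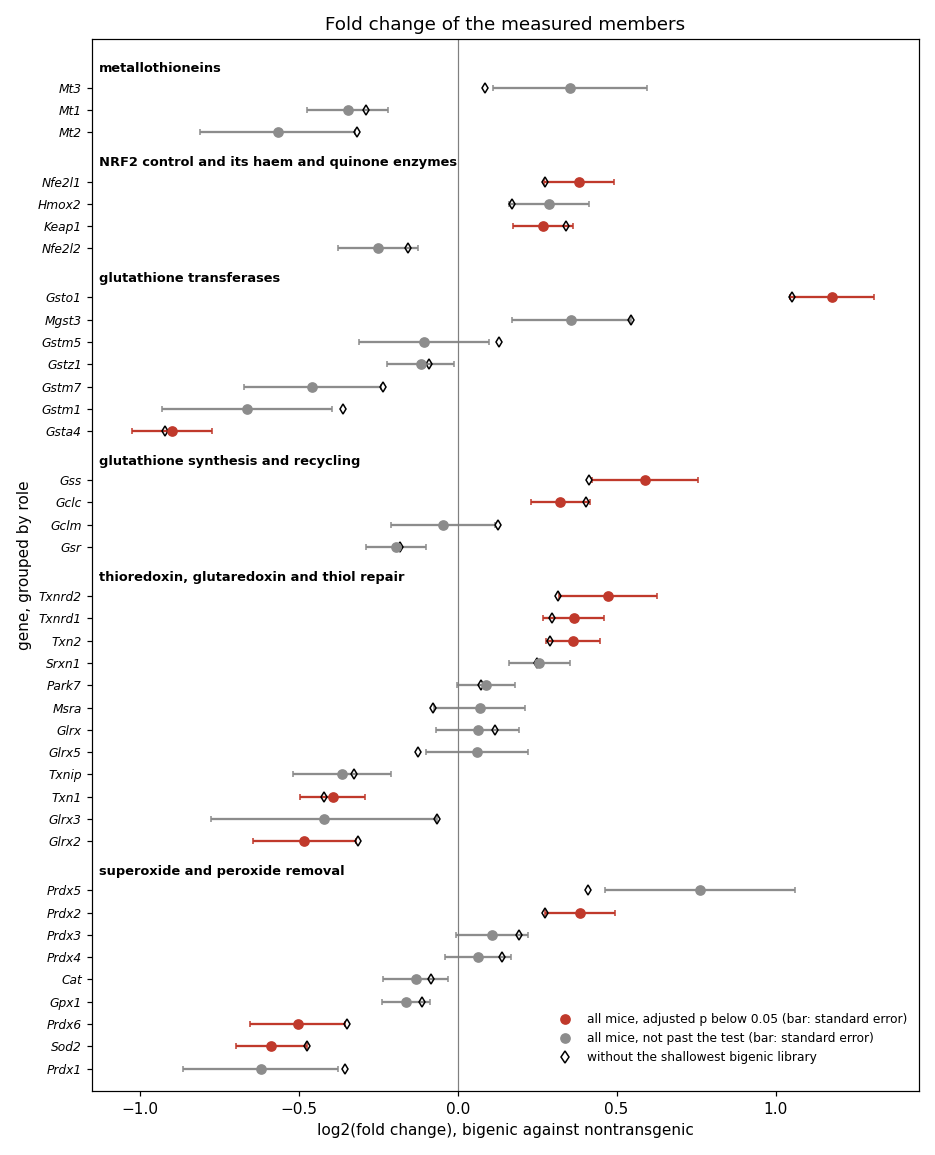
Log2 fold change of the 39 antioxidant genes, bigenic against nontransgenic (horizontal axis), grouped by role, where filled points are the fit of all 8 mice, in colour for an adjusted p below 0.05 and grey otherwise, bars are standard errors and open diamonds are the fit without the shallowest bigenic library. Gsto1 lies farthest to the right at 1.18 and Gsta4 farthest to the left at -0.90.

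Fold changes are given on the log2(value + 1) scale, on which changes of low-level genes come out too small. Changes in this bulk RNA can come from fewer cells of a type or from less RNA per cell, and the 2 cannot be told apart. The neuronal and astrocyte markers given below moved between the groups and the choroid plexus markers moved most. Their part in any result on the antioxidant genes was not tested.

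**Figure D3:**
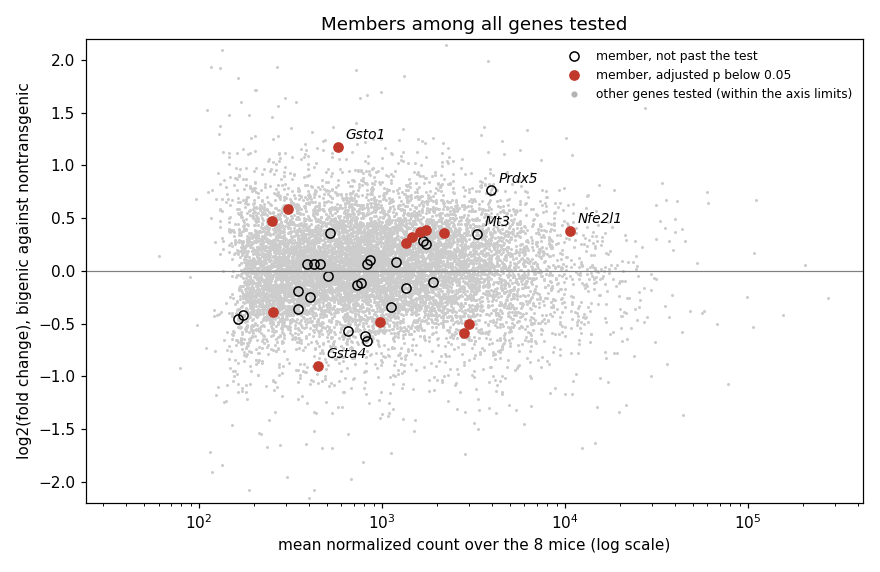
Log2 fold change (vertical axis) against mean normalized count over the 8 mice (log scale, horizontal axis) for the antioxidant genes (circles, filled where the adjusted p was below 0.05) among the other genes tested that lie within the axis limits (grey dots). The antioxidant genes spread to both sides of 0, with Gsto1 at the top and Gsta4 at the bottom.

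Among the enzymes that remove superoxide and peroxide, 9 of the 11 listed were tested, of which Prdx2 rose and Sod2 and Prdx6 fell. Sod2 (uc008alv.1), the manganese superoxide dismutase of the mitochondrial matrix, gave normalized counts of 2286, 1770, 2514 and 2481 in bigenic mice, compared with 3460, 3467, 3391 and 3162 in nontransgenic mice. Every bigenic mouse lay below every nontransgenic mouse. The log2 fold change was -0.59 (SE 0.11, adjusted p = 0.00324), and without the shallowest bigenic mouse it was -0.47 (adjusted p = 0.000162). The annotated Sod2 exons span chr17:13200705-13210985 in mm9, and 74.5% of their 50-base windows are unique in that genome. Only uniquely mapping reads were counted.

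Prdx6 (uc007dfl.1) encodes the peroxiredoxin that also has phospholipase activity and is abundant in astrocytes. Its counts were 2721, 1770, 2668 and 2785 in bigenic mice, compared with 3408, 3807, 3734 and 2991 in nontransgenic mice. The ranges were separate, with the shallowest bigenic mouse far below the rest. Its log2 fold change was -0.50 (SE 0.15, adjusted p = 0.0246), and -0.35 without that mouse (adjusted p = 0.0059). The call was lost without nontransgenic mouse 1, 2 or 3 (adjusted p = 0.0568, 0.074 and 0.0715).

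Prdx2 (uc009mom.1), a cytosolic peroxiredoxin that is high in neurons, moved the other way. Its counts were 1861, 2469, 1763 and 1828 in the bigenic and 1541, 1532, 1540 and 1402 in the nontransgenic mice. All bigenic mice lay above all nontransgenic mice, and the shallowest bigenic mouse was the highest. This gave a log2 fold change of 0.38 (SE 0.11, adjusted p = 0.0212), and 0.27 without that mouse (adjusted p = 0.00434). Leaving out nontransgenic mouse 2 or 4 gave adjusted p of 0.051 and 0.0551. Exons of Prdx2 overlap those of Rnaseh2a on the opposite strand.

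The other peroxide enzymes did not pass with all 8 mice. Prdx1, a cytosolic peroxiredoxin whose promoter window is shown above, had counts of 768, 356, 734 and 730 against 951, 1095, 1103 and 714 (log2 fold change -0.62, adjusted p = 0.0718). Here one mouse in each group, bigenic mouse 2 and nontransgenic mouse 4, fell away from its group, and the ranges overlapped. Without the former, the log2 fold change was -0.36 (adjusted p = 0.0496), and without the latter -0.76 (adjusted p = 0.049). Prdx5, a peroxiredoxin of mitochondria, peroxisomes and cytosol, gave 4446, 9670, 3252 and 3331 in the bigenic and 2547, 2462, 2739 and 3276 in the nontransgenic mice (log2 fold change 0.76, adjusted p = 0.0717). Its mean moved mostly with the shallowest bigenic mouse, without which the log2 fold change was 0.41 (adjusted p = 0.0194), and without bigenic mouse 3 it was 0.93 (adjusted p = 0.041). For Gpx1, the main cytosolic glutathione peroxidase, the groups were separate with the bigenic mice lower, but the log2 fold change of -0.16 did not pass (adjusted p = 0.123). The log2 fold changes of Cat (catalase), Prdx3 (mitochondrial) and Prdx4 (endoplasmic reticulum) were -0.13, 0.11 and 0.06, and -0.083, 0.19 and 0.14 without the shallowest bigenic mouse, with no call in either fit.

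The thioredoxin, glutaredoxin and thiol repair genes, all 12 of which were tested, showed 3 higher and 2 lower. Txn1 and Txn2, the cytosolic and mitochondrial thioredoxins, moved in opposite directions. Txn1 (uc008syp.1) gave counts of 214, 232, 222 and 209 in the bigenic and 264, 303, 318 and 271 in the nontransgenic mice. No bigenic mouse reached the lowest nontransgenic mouse. On the log2 scale the change was -0.39 (SE 0.10, adjusted p = 0.0151), and the adjusted p was 0.0531 without nontransgenic mouse 2 and 0.0571 without nontransgenic mouse 3. Txn2 (uc007wog.1) gave 2350, 2864, 2307 and 2367 against 1862, 1954, 1990 and 1857. All bigenic mice were above all nontransgenic mice, with the shallowest bigenic mouse highest. The log2 fold change was 0.36 (SE 0.09, adjusted p = 0.00906), and 0.29 without that mouse (adjusted p = 0.00194).

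Both thioredoxin reductases, which pass electrons from NADPH to thioredoxin, rose. Txnrd1 (uc007gjy.1), the cytosolic enzyme, had counts of 1800, 2070, 1579 and 1791 in the bigenic and 1350, 1351, 1355 and 1550 in the nontransgenic mice. The lowest bigenic mouse was just above nontransgenic mouse 4, which itself stood well above the other 3. Its log2 fold change was 0.36 (SE 0.10, adjusted p = 0.0148), and 0.30 without the shallowest bigenic mouse (adjusted p = 0.00864). Txnrd2 (uc007yny.1), the mitochondrial enzyme, had counts of 258, 399, 254 and 260 against 203, 200, 201 and 223. Again the ranges were separate, and the shallowest bigenic mouse was far above the others. This gave a log2 fold change of 0.47 (SE 0.15, adjusted p = 0.0365), and 0.32 without that mouse (adjusted p = 0.0178). Leaving out any one nontransgenic mouse raised the adjusted p of Txnrd2 to between 0.0506 and 0.0898.

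Glrx2 (uc007cxa.1), the mitochondrial glutaredoxin, fell. Its counts were 808, 565, 1058 and 864 in the bigenic and 1118, 1086, 1213 and 1082 in the nontransgenic mice. All bigenic mice were below all nontransgenic mice, but bigenic mouse 3 only narrowly. On the log2 scale the change was -0.48 (SE 0.16, adjusted p = 0.0415), and -0.31 without the shallowest bigenic mouse (adjusted p = 0.0185). The call was kept only without bigenic mouse 2 or 3, and the adjusted p lay between 0.0587 and 0.107 when any other mouse was left out.

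Srxn1, sulfiredoxin, which repairs over-oxidised peroxiredoxins and whose promoter holds a core shown above, gave 1626, 1923, 2111 and 1929 against 1635, 1637, 1644 and 1420 (log2 fold change 0.26, adjusted p = 0.0591). Of the bigenic mice, 3 lay above all nontransgenic mice and mouse 1 lay among them, and the adjusted p was 0.0494 without the shallowest bigenic mouse and 0.0195 without bigenic mouse 1. Txnip, which binds and inhibits thioredoxin, had a log2 fold change of -0.36 (adjusted p = 0.0877). The glutaredoxins Glrx, Glrx3 and Glrx5, the methionine sulfoxide reductase Msra and Park7 (DJ-1) did not pass, with log2 fold changes of 0.06, -0.42, 0.06, 0.07 and 0.09. Without the shallowest bigenic mouse, Glrx3 was -0.07 and Glrx 0.12, Glrx5 and Msra turned to -0.12 and -0.08, and Glrx turned to -0.04 without bigenic mouse 3. The Glrx3 value belongs to a transcript that is not the RefSeq one.

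**Figure D4:**
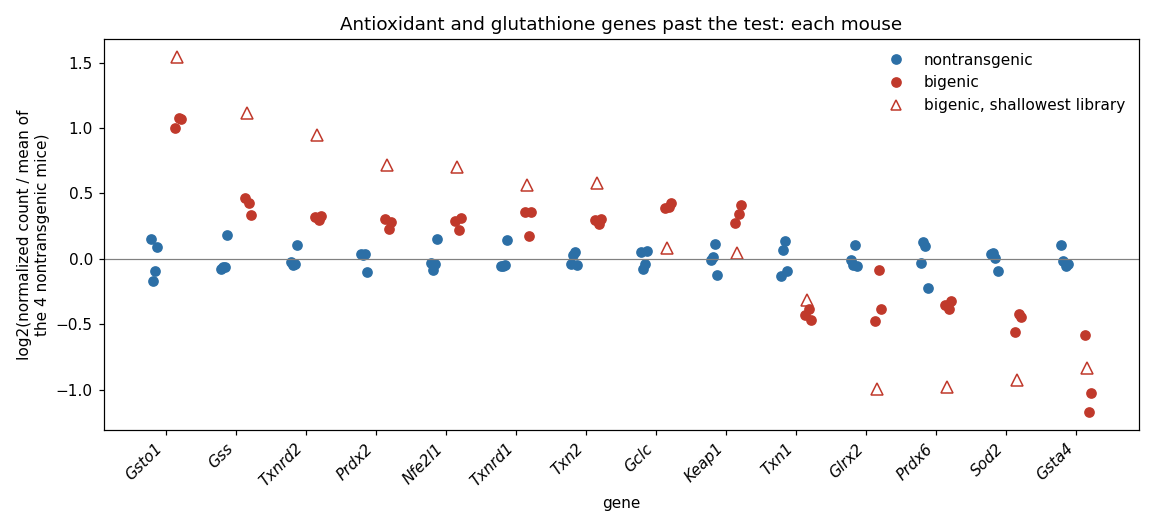
For each of the 14 genes that passed (horizontal axis, ordered by fold change), every mouse's normalized count is shown as log2 of its ratio to the mean of the 4 nontransgenic mice (vertical axis), with nontransgenic mice in blue, bigenic mice in red and the shallowest bigenic library as an open triangle. The bigenic points of Gsto1 lie wholly above the nontransgenic points and those of Gsta4 wholly below.

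Of the 4 genes of glutathione synthesis and recycling, Gclc and Gss rose. Gclc (uc009qtm.1), the catalytic subunit of glutamate-cysteine ligase and the rate-limiting enzyme, gave 1686, 1365, 1701 and 1730 in the bigenic and 1336, 1223, 1256 and 1346 in the nontransgenic mice. All bigenic mice were above all nontransgenic mice, with the shallowest bigenic mouse only just so. The log2 fold change was 0.32 (SE 0.09, adjusted p = 0.0211), and 0.40 without that mouse (adjusted p = 0.000412). The adjusted p passed the threshold no longer without bigenic mouse 3 or 4 or nontransgenic mouse 2 or 3, with values of 0.0531, 0.0595, 0.0672 and 0.0626. Gss (uc008nkx.1), glutathione synthetase, gave 333, 521, 324 and 304 against 228, 231, 231 and 273. The groups were separate, and the highest mouse of each, bigenic mouse 2 and nontransgenic mouse 4, stood well above the rest. Its log2 fold change was 0.59 (SE 0.17, adjusted p = 0.0210), and 0.41 without the shallowest bigenic mouse (adjusted p = 0.00578). Without nontransgenic mouse 1, 2 or 3 the adjusted p was 0.0591, 0.0584 and 0.0578, and Gss exons overlap 3 genes on the opposite strand, among them Acss2.

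Gclm, the modifier subunit of the ligase, had a log2 fold change of -0.05 (adjusted p = 0.840), which was 0.13 without the shallowest bigenic mouse. Gsr, glutathione reductase, which regenerates glutathione from its oxidised form, had a log2 fold change of -0.19 (adjusted p = 0.132).

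The glutathione transferases held the largest changes of the set in either direction, and 7 of the 8 listed were tested. Gsto1 (uc008hvq.1; chr19:47929460-47939280, mm9), the omega-class transferase that also reduces dehydroascorbate, gave 700, 1022, 740 and 736 in the bigenic and 388, 312, 329 and 372 in the nontransgenic mice. The lowest bigenic mouse was far above the highest nontransgenic mouse. Means were 799.5 ± 149 and 350.2 ± 35.6 (SD, n = 4 each), a log2 fold change of 1.18 (SE 0.13, 2.26-fold, adjusted p = 0.000201) that became 1.05 without the shallowest bigenic mouse. Over all 10588 genes, 64 had a higher log2 fold change.

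Gsta4 (uc009qty.2; chr9:78039773-78057155, mm9), the alpha-class transferase that conjugates 4-hydroxynonenal from lipid peroxidation, gave 390, 327, 258 and 286 in the bigenic and 627, 575, 562 and 566 in the nontransgenic mice. Bigenic mice were all far below nontransgenic mice. Means were 315 ± 57.3 and 582 ± 30.2 (SD, n = 4 each), a log2 fold change of -0.90 (SE 0.13, adjusted p = 0.000671). It was -0.92 without the shallowest bigenic mouse, and 207 genes had a lower log2 fold change. All 50-base windows in the exons of Gsto1 and Gsta4 were unique in the mm9 genome.

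The mu-class transferases are a cluster of similar genes on chromosome 3, and they did not pass with all 8 mice. Gstm1 gave 765, 331, 774 and 760 against 981, 1151, 1124 and 743 (log2 fold change -0.66, adjusted p = 0.0773). As in Prdx1, bigenic mouse 2 and nontransgenic mouse 4 lay apart from their groups, and without the former the log2 fold change was -0.36 (adjusted p = 0.0433). Because 74.9% of its exon windows are unique, the split of its reads from those of its neighbours is uncertain. Gstm5 and Gstm7 had log2 fold changes of -0.11 and -0.46, neither past the threshold. Without the shallowest bigenic mouse Gstm5 turned to 0.13 and Gstm7 was -0.24. Mgst3, a microsomal transferase, gave 562, 385, 712 and 688 against 448, 471, 503 and 370, with a log2 fold change of 0.36 (adjusted p = 0.161) that was 0.55 without the shallowest bigenic mouse (adjusted p = 0.00345). That mouse alone lay among the nontransgenic mice. Gstz1, the zeta-class enzyme of tyrosine breakdown, had a log2 fold change of -0.12.

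Among the regulators, Nfe2l1 and Keap1 passed and Nfe2l2 did not. Nfe2l1 (uc007lcr.2), which encodes NRF1, a relative of NRF2 known for control of proteasome genes, gave 11231, 14979, 10699 and 11384 in the bigenic and 8988, 8646, 8964 and 10186 in the nontransgenic mice. The ranges were separate, narrowly between bigenic mouse 3 and nontransgenic mouse 4. This gave a log2 fold change of 0.38 (SE 0.11, adjusted p = 0.0225), and 0.27 without the shallowest bigenic mouse (adjusted p = 0.00645). Without nontransgenic mouse 1, 2 or 3 the adjusted p was 0.0601, 0.068 and 0.0626.

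Nfe2l2 (uc008keq.1), which encodes NRF2 itself, gave 456, 300, 346 and 376 in the bigenic and 428, 443, 407 and 465 in the nontransgenic mice. In 3 bigenic mice it was below every nontransgenic mouse, and in mouse 1 it was among them. On the log2 scale the change was -0.25 (adjusted p = 0.143). It was -0.36 without bigenic mouse 1 (adjusted p = 0.0319) and -0.16 without the shallowest bigenic mouse (adjusted p = 0.230).

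Keap1 (uc009okr.2), the adaptor that targets NRF2 for degradation, gave 1479, 1268, 1552 and 1629 against 1217, 1236, 1329 and 1125. The shallowest bigenic mouse was within the nontransgenic range and the other 3 were above it. The log2 fold change was 0.27 (SE 0.09, adjusted p = 0.0496), and 0.34 without that mouse (adjusted p = 0.00294). Leaving out any mouse other than the shallowest gave adjusted p between 0.0611 and 0.126. With the trend of each mouse's values on GC content and length removed, the log2 fold change was 0.08 (adjusted p = 0.675). With that trend removed and the shallowest bigenic mouse left out, it was 0.24 (adjusted p = 0.0364). Hmox2, the constitutive heme oxygenase, had a log2 fold change of 0.29 (adjusted p = 0.0989), and 0.17 without the shallowest bigenic mouse (adjusted p = 0.119).

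Among the 34 genes whose promoters were searched, 8 had an antioxidant response core in the window. Of these 8, Txnrd1 passed with all mice. Prdx1 and Srxn1 passed without the shallowest bigenic mouse, the former lower and the latter higher. Nfe2l2, Gclm, Gstm5, Gstm7 and Mt2 passed in neither of these fits.

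The metallothioneins, small cysteine-rich proteins that bind zinc and copper, lie within 27.7 kb of each other on chromosome 8 in the order Mt3, Mt2 and Mt1. Mt1 gave 1051, 862, 1029 and 966 in the bigenic and 1285, 1390, 1382 and 955 in the nontransgenic mice (log2 fold change -0.35, adjusted p = 0.0570), and Mt2 gave 624, 304, 628 and 570 against 872, 826, 855 and 532 (log2 fold change -0.57, adjusted p = 0.0950). In both genes 3 nontransgenic mice lay above all bigenic mice and nontransgenic mouse 4 lay among them. Without nontransgenic mouse 4 the log2 fold changes were -0.47 and -0.74 (adjusted p = 0.00679 and 0.0439), and without the shallowest bigenic mouse they were -0.29 and -0.32 (adjusted p = 0.0714 and 0.113). Mt3, the form enriched in brain, gave 3336, 6244, 2688 and 2923 against 2328, 2672, 2781 and 3561 (log2 fold change 0.35, adjusted p = 0.281), and 0.08 without the shallowest bigenic mouse. Per kilobase of annotated exon in the nontransgenic mice, Mt3 had the highest level of the 39 genes at 5270 normalized counts, followed by Nfe2l1 at 1690, and Gss was lowest at 42.0. The length used was that of all annotated exons of a gene together. It can exceed the length of the counted transcript and so lower the value, and this was not corrected.

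Metal response cores, TGCACNC or TGCGCNC, to which the zinc-sensing factor MTF-1 binds in metallothionein promoters, are shown for these 3 genes in the same form as above. Either core, on either strand, was in 25.7% of all promoters and in 16 of 49 antioxidant promoters (32.7%).
Mt1, chr8:94179055-94179084, + strand: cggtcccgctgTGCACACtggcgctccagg
Mt2, chr8:94172479-94172508, + strand: cgcagacccttTGCGCTCagctcctttgct
Mt3, chr8:94152623-94152652, + strand: cgggacagcagTGCACACacacggagagca
Promoters of other antioxidant genes held such a core as well, among them Txnrd2 and Nfe2l1.

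Beyond the 39 genes, 170 genes of 7 neighbouring lists were considered, of which 116 were tested and 42 passed (36.2%, against 35.9% of all genes), with 22 higher and 20 lower and a median log2 fold change of 0.0048. Among 19 tested genes that supply or use glutathione, 7 rose and 5 fell. Chac1, which degrades glutathione, rose with a log2 fold change of 1.60 (adjusted p = 0.00102), from 80.5 ± 4.43 normalized counts in the nontransgenic to 260.2 ± 99.3 in the bigenic mice (SD, n = 4 each). Lancl2, a lanthionine synthetase-like protein, and Gdap1, related in sequence to glutathione transferases, fell (-0.93 and -0.45).

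In other groups, 6 of 24 genes listed with peroxidases, selenoproteins and thiol enzymes rose and 3 fell. Among them were Sesn2, a stress-inducible sestrin, at a log2 fold change of 1.04 (adjusted p = 0.00160), Txnl4a at 0.62, Msrb2 at 0.51 and Pon2 at -0.46. Among 13 NADPH supply genes, 3 rose and 4 fell, the latter being Nnt, the mitochondrial transhydrogenase (-0.36), Aldh1l1 (-0.37), Idh1 (-0.37) and Taldo1 (-0.52). Of 22 NRF2 partners and related targets, 3 rose, including the repressor Bach1 (0.45) and biliverdin reductase Blvra (0.49), and 2 fell, Rbx1 (-0.27) and Cbr1 (-0.28).

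Of 17 metal handling genes, 2 rose and 3 fell: the zinc importer Slc39a14 rose (0.59), while Slc39a10, another zinc importer, fell (-1.28, adjusted p = 0.000315) as did Slc30a10 (-0.66) and the copper chaperone Cox17 (-0.73). Of 10 genes listed with selenocysteine synthesis, Lrp8, the receptor for selenoprotein P in brain, rose (0.58) and Pstk fell (-0.36). Of 11 genes listed with the making of superoxide or peroxide, 2 fell, Rac1 (-1.005) and Acox3 (-0.26).

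Markers of cell types moved between the same mice. Summed levels of 10 astrocyte markers were 125079 to 145138 in the bigenic and 152871 to 164432 in the nontransgenic mice, with 4 of the 10 lower, among them Gja1 (-0.43) and Aqp4 (-0.63). Summed levels of 7 excitatory neuron markers were 44111 to 63412 against 72896 to 80299, with Camk2a (-0.88) and Nrgn (-0.76) lower. Inhibitory neuron markers were 15136 to 15723 against 16917 to 18678 (2 of 6 lower), and microglial markers 5268 to 6873 against 7057 to 8321 (5 of 9 lower). Oligodendrocyte markers overlapped, at 71433 to 92351 against 70563 to 88523 (1 of 10 higher), as did endothelial markers, at 5833 to 6820 against 6374 to 8368 (1 of 10 lower). The 5 choroid plexus markers tested, of 12 listed, were all higher, with summed levels of 8559 to 19772 against 410 to 1281 and Ttr at a log2 fold change of 4.34. Meningeal markers (5 of 8 tested) overlapped, at 4546 to 6641 against 5639 to 8013. The 7 red blood cell markers lay below the level for testing.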

How the data were processed

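The authors selected poly(A)+ RNA of the right cortex and sequenced it as 50-base reads. Per the labels and the study's methods, adaptors were trimmed with cutadapt, reads were mapped to mm9 with Bowtie 0.12.7, allowing 2 mismatches and keeping unique hits, exons were counted with bedtools and values were scaled with DESeq2. The deposited normalized counts are a signal per transcript, rounded to whole numbers, not raw counts. What 1 read is worth could be estimated for every column, but exceeded 1 in only 3 of 8, so whole reads were not recoverable and no count test was run. The second deposited table was used for symbols, and its columns of the authors' comparison (mean, log2 fold change, SE, p, adjusted p and q-value) were not used.

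A gene was tested if it reached 10 RPM, relative to its column's total, in any mouse (10588 genes). log2(value + 1) was compared with limma 3.58.1 (lmFit, eBayes with trend) in R 4.3.3, with Benjamini-Hochberg adjustment over all of them and a threshold of 0.05. In simulated data for bigenic against nontransgenic mice, 198 of 200 changed genes among 10588 were called. How often the fit calls a log2 fold change as small as that of Keap1 (0.27) or Gclc (0.32) was not tested. The same holds for the sizes found in Txn2 and Txnrd1 (0.36 each), Nfe2l1 and Prdx2 (0.38 each) and Txn1 (-0.39). It also holds for those of Txnrd2 (0.47), Glrx2 (-0.48) and Prdx6 (-0.50). The effect of a library that stands apart, as the shallowest bigenic mouse does, was not tested either. P-values measure the spread between the 4 mice of each group. GC content and length were available for 97.3% of genes. Every antioxidant gene is reported. Values in every mouse are given for those that passed and for Nfe2l2 and Keap1, and for further genes that were chosen after their values were seen. From each neighbouring or marker list, up to 4 genes are named, taken from those with the smallest adjusted p. The genes and lists were chosen with earlier results of these data known. Counting by strand is not stated, so overlapping opposite-strand genes cannot be separated. Some genes of the neighbouring and marker lists are counted but not reported here by name.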

Additional observations from a re-analysis of the deposited data

Results flagged for a closer look

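In 78 groups of 4 mice (39 genes in 2 groups), a mouse stood far from the other 3 in 17, judged by Dixon's criterion, which sets the gap to the nearest mouse against the whole range. Chance gives about 1 in 20 such groups where they are independent and normally distributed. Here the genes share the same libraries, so the 17 cannot be judged against that rate. Of the 17, 11 involved the shallowest bigenic mouse. It was low in Prdx1 (356 normalized counts, against 730 to 768 in the other 3), Prdx6 (1770), Gclc (1365) and Gstm1 (331, against 760 to 774). It was high in Prdx2 (2469), Txn2 (2864), Txnrd2 (399), Glrx5 (1216, against 719 to 744), Gss (521), Gsto1 (1022) and Nfe2l1 (14979). The other 6 involved nontransgenic mouse 4, which was low in Prdx2 (1402), Srxn1 (1420) and Mt2 (532, against 826 to 872) and high in Txnrd1 (1550, against 1350 to 1355), Txnrd2 (223) and Gss (273).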

How the results depend on the processing

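Over 18 alternatives, 251 of 251 recomputed fold changes of the 14 genes that passed kept their direction and 210 stayed past the threshold. With array weights, which gave the shallowest bigenic mouse a weight of 0.0843, 27 antioxidant genes passed (14 higher, 13 lower; 69.2%, against 61.0% of all genes) and 66 neighbouring genes (56.9%). At an adjusted p of 0.01, 4 passed (2 higher, 2 lower; 10.3%, against 19.4% of all genes) and 19 neighbouring genes (16.4%). When 1 mouse was left out, 5 to 19 passed (3 to 12 higher, 2 to 7 lower), neighbouring genes 28 to 50, and the median log2 fold change ran from -0.037, without bigenic mouse 3, to 0.073. Without nontransgenic mouse 1, 2 or 3, 8, 5 and 6 passed (20.5%, 12.8% and 15.4%, against 26.0%, 25.2% and 25.1% of all genes). Of the fold changes, 16 in 7 genes, none of which passed, changed sign. With array weights these were Glrx3 (0.14), Glrx5 (-0.12), Msra (-0.031), Park7 (-0.029), Gclm (0.13) and Gstm5 (0.067). Without the shallowest bigenic mouse they were Glrx5 (-0.12), Msra (-0.078), Gclm (0.13) and Gstm5 (0.13), and without bigenic mouse 3 Glrx (-0.037). Over the fits that each left out 1 mouse, Glrx5 ran from -0.12 to 0.13, Msra from -0.078 to 0.15, Gclm from -0.13 to 0.13, Gstm5 from -0.22 to 0.13 and Glrx from -0.037 to 0.14. With the GC and length trend removed, an alternative chosen after seeing the data, Gclm was 0.022, and also without the shallowest bigenic mouse Glrx5 was -0.14, Msra -0.079, Gclm 0.14 and Gstm5 0.15. With the trend removed 14 genes passed, a count given without the share over all genes and so not to be compared with it. Of these, 13 were the same: Keap1 no longer passed and Mt1 did (adjusted p = 0.0387). Without the shallowest bigenic mouse as well, Keap1 passed (adjusted p = 0.0364). The cause was not tested. No paired analysis was possible because the columns carry no replicate numbers.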
